A study of Mus musculus with 2 samples.

Results

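The interferon-stimulated genes examined here are 37 mouse genes that cells switch on when interferon reaches its receptors. They were chosen as a list of well-known members of this response, with earlier results of these data known. Of the 37, 34 were measured among 16282 named genes with a probe well above background on at least 1 array. The probe of Oas3 was not well above background on either array, and no probe could be tied to Mx1 or Mx2 through the accessions used for naming. Mx1 and Mx2 were thus left out by the naming step, and their signals were not read. RNA came from ovaries of 2-week-old mice, split along their length and kept in culture over 3 days. Tachykinin receptor (TKR) agonists were present in 1 sample and TKR antagonists in the other. Tachykinins (TKs) are small peptides such as substance P that act through the receptors TACR1, TACR2 and TACR3. The study's methods name an agonist and an antagonist of each receptor, each at 1 μM. GR-64349 and GR-94800, for example, are the agonist and the antagonist of TACR2. Neither the labels nor the methods of the array experiment give the mouse strain or the number of ovaries behind each RNA, and ovaries without ligand were not analysed here.

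Interferons are secreted proteins of antiviral defence. Type I interferons act on IFNAR1 and IFNAR2, whose kinases JAK1 and TYK2 phosphorylate STAT2. With IRF9 it takes part in a complex that binds the interferon-stimulated response element in promoters, while interferon gamma acts through IFNGR1 and IFNGR2. In ovary as in other tissues a low constitutive level of many of these genes is usual without infection, and leukocytes, endothelium and epithelium all respond to interferon.

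Each RNA was hybridised to 1 single-colour array, so there is no replicate and nothing was tested statistically. Levels are log2 of the processed spot signal over the 75th percentile of its array, 672 units in the agonist sample and 569 in the antagonist sample. Log2 ratios subtract the antagonist level from the agonist level, so that 1 stands for a 2-fold difference, and the error given with it is the image analysis software's estimate for the spots, which does not cover the spread between ovaries. A spot is well above background by the software's own criterion, met by 65.4% of agonist spots and 61.6% of antagonist spots, and 0 spots were saturated. For the 15258 named genes that both arrays measured well above background the log2 ratio had a median of -0.10 and an SD of 0.48 across genes. Markers of ovary were present on both arrays: all 8 oocyte genes and all 7 granulosa genes of the marker lists were well above background on each. In whole ovary pieces, fewer cells of a type and less RNA per cell cannot be told apart.

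The promoter letters of 6 of these genes are shown first because the response element lies there. RefSeq windows of 300 bases, from 250 before to 50 after the transcription start on build GRCm38.p6, were found for 28 of the 37 genes and searched for the core of the element on both strands, namely GAAA, any 2 bases and GAAA again. The core was found in 17 of the 28 genes, or 60.7%, against 3.99% of all genes with such a window, and in 8 of the 17 it occurred more than once, with overlapping matches counted. The 170 bases before the start are printed below 5′ to 3′ along the gene's strand, with each match to the core in capitals. The first 3 are the members with the largest decrease on the agonist array. Ifitm1, the member with the largest increase, is shown for contrast, and Gbp2 and Bst2 because they hold the core and were not lower; these last 3 were chosen after their values were seen.
Rsad2 (chr12:26456453-26456622, minus strand): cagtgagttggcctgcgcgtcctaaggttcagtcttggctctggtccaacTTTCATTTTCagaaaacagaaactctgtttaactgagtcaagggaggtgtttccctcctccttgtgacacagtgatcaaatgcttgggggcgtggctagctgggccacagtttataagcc
Ifit1 (chr19:34640719-34640888, plus strand): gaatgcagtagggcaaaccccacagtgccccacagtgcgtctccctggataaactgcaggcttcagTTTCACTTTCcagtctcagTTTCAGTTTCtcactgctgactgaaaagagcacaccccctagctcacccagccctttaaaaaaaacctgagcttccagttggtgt
Ifit3 (chr19:34583359-34583528, plus strand): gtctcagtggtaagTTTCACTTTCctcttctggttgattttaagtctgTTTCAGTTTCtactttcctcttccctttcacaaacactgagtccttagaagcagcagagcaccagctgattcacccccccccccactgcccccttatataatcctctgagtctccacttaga
Ifitm1 (chr7:140967906-140968075, plus strand): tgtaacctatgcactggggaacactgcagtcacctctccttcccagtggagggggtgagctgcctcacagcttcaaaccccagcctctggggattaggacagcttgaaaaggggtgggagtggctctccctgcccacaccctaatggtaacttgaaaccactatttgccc
Gbp2 (chr3:142620493-142620662, plus strand): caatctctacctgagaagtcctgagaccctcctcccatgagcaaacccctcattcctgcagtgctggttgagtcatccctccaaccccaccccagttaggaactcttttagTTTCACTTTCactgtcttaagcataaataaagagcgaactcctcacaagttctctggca
Bst2 (chr8:71537473-71537642, minus strand): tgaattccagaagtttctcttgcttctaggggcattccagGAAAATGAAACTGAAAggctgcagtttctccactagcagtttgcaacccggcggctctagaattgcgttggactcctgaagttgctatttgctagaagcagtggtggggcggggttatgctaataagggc

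The interferon-stimulated genes did not move as a block between the arrays. Rsad2, Ifit3 and Ifit1, which encode antiviral proteins of the classical type I response, were at least 2-fold lower with the agonists, whereas Ifitm1, a membrane protein that hinders virus entry, was at least 2-fold higher. The 3 lower genes are 8.82% of the 34 measured, against 0.577% of all named genes at least 2-fold lower, and the 1 higher gene is 2.94%, against 4.01% of all named genes. Because the list was chosen with earlier results of these data known, these shares only describe it. The median log2 ratio of the 34 was -0.20, with 11 genes above 0 and 23 below, while 37.7% of all named genes were above 0. Set against the median of all genes, 15 members lay above it and 19 below. Without Rsad2, Ifit1, Ifit3 and Ifitm1 the median of the other 30 was -0.17, and 6 of these 30 were at least 1.5-fold lower, against 4.28% of all named genes. Of the 6, Usp18 alone stayed so under every alternative in processing that measured it.

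**Figure D1:**
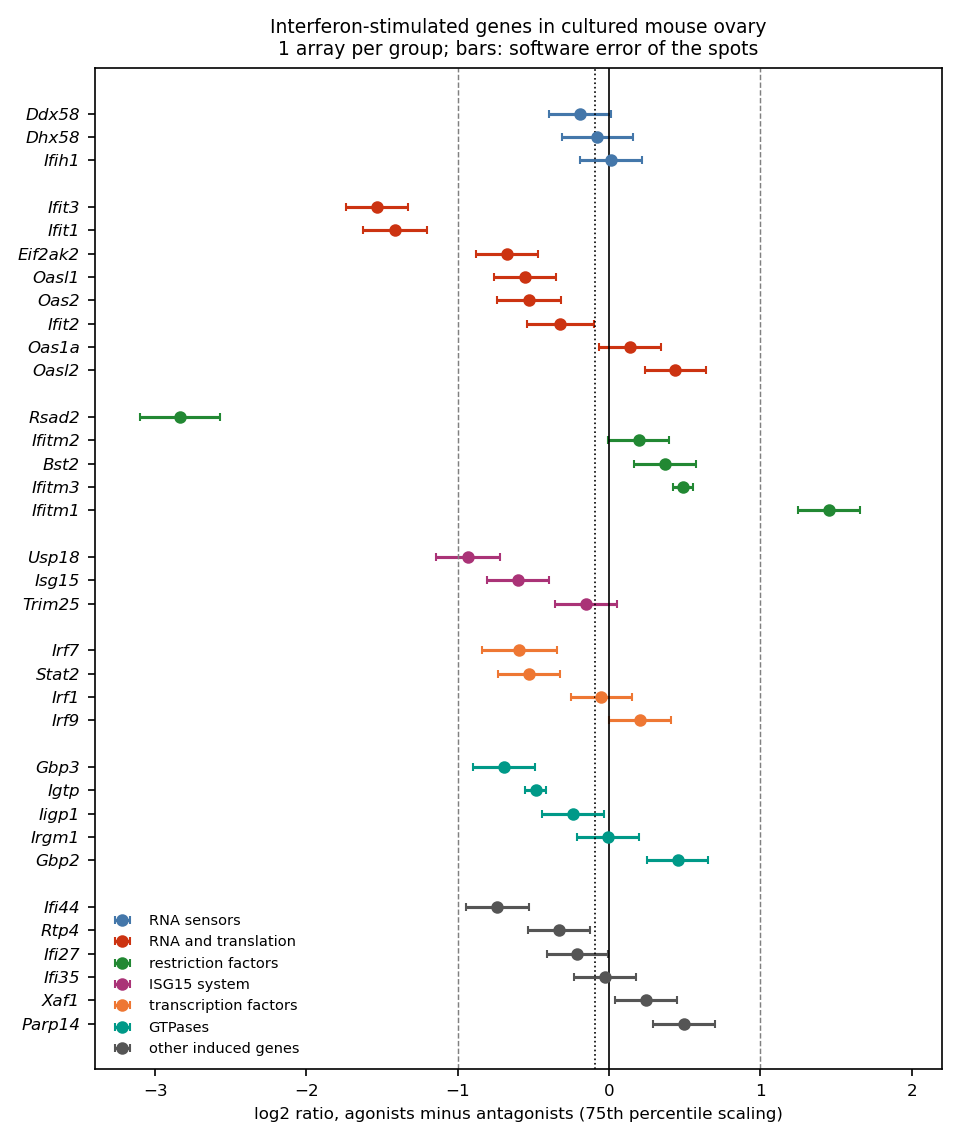
Log2 ratio (agonists minus antagonists, x axis) of each of the 34 measured genes, grouped by role and coloured accordingly; points are the values of 1 array per group and bars the software's error of the spots. The dotted line is the median of all named genes (-0.10) and the dashed lines mark 2-fold; Rsad2 at -2.84 and Ifitm1 at 1.46 are the ends of the list.

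Rsad2 encodes viperin, an enzyme that makes a chain-terminating nucleotide and so halts viral RNA synthesis. Its signal was 37.7 units with agonists present and 228 with antagonists. The log2 ratio was -2.84 ± 0.27 (software error), 7.15-fold lower with the agonists, and only 1 of the 15258 named genes had a lower value. The agonist signal lay not far over the lowest signal of a probe well above background on that array, 18.1 units, so the size of this ratio depends on how the background is estimated. With the normexp background correction it was -1.70, the same direction with a smaller size. That setting also adds an offset of 50 units to each signal, more than the agonist signal itself. Such an offset alone draws the ratio of a dim gene towards 0, and its part in the smaller size was not separated.

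Ifit1 and Ifit3 belong to a family of proteins with tetratricopeptide repeats; IFIT1 holds back translation of viral RNA that lacks a host-type cap. Ifit3 gave 214 units under agonists and 525 under antagonists. That is a log2 ratio of -1.53 ± 0.21 (software error), or 2.89-fold lower, and 16 named genes had a lower value. Ifit1 followed closely, with 134 units against 303 and a log2 ratio of -1.41 ± 0.21 (software error), or 2.67-fold lower. The third member of the family on the list, Ifit2, had similar signals on both arrays, 92.4 and 97.8 units, and a log2 ratio of -0.32, although its start lies within 90.2 kb of that of Ifit1 on chromosome 19. A close copy of Ifit3, Ifit3b, gave -1.39 by its brighter probe and -0.16 by another. Transcripts of these copies are nearly identical, so a probe may read both.

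The oligoadenylate synthetases, which make a second messenger that activates RNase L once they meet double-stranded RNA, were divided. Oas2 gave 137 and 167 units in agonist and antagonist samples, with -0.53 as log2 ratio. Oas1a had 991 and 761 units and a log2 ratio of 0.14, with another probe at 0.29; its near-identical copies may add to either. Of the related Oasl genes, Oasl1 was at -0.56 and Oasl2 at 0.44, each with an error of 0.20, so the gap between these relatives was larger than the error of their spots. Eif2ak2, which encodes the kinase PKR that stops translation on sensing double-stranded RNA, had 611 and 826 units and a log2 ratio of -0.68. In this group of 8 measured genes the median was -0.54, and 2 of the 8 lay above 0, beside 37.7% of all named genes. When probes whose mean signal fell under the 75th percentile were dropped, 3 of these genes remained, with a median of 0.14.

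Genes of restriction factors that act at membranes lay on the other side of the list from Rsad2. Ifitm1 gave 3098 units under agonists and 955 under antagonists, a log2 ratio of 1.46 ± 0.20 (software error), or 2.74-fold higher, and 266 named genes had a higher value. Its relatives Ifitm2 and Ifitm3, which also hinder the fusion of virus with host membranes, had log2 ratios of 0.19 and 0.49. Ifitm3 is printed at 10 spots, which ran from 15776 to 17164 units under agonists and from 9463 to 10321 under antagonists. Every agonist spot was brighter than every antagonist spot, and after scaling the gap between them was still 0.37 on the log2 scale, while the SD of the log2 ratio over the 10 spots was 0.04. Bst2, which encodes tetherin and holds budding virus at the cell surface, had 13260 and 8684 units and a log2 ratio of 0.37. All 4 of these genes were above 0, as were 37.7% of all named genes, and stayed so under each of the 15 alternatives in processing. Of the other scalings, only that on the median of all probes moved the median of all genes down, by -0.06. Values above 0 could therefore hardly change sign. The log2 ratio of Ifitm2, 0.19, was smaller than its spot error of 0.20. For Ifitm1, Ifitm2 and Bst2, each read from 1 spot of 1 probe, the alternatives for spots, probes and filters could not change the value.

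**Figure D2:**
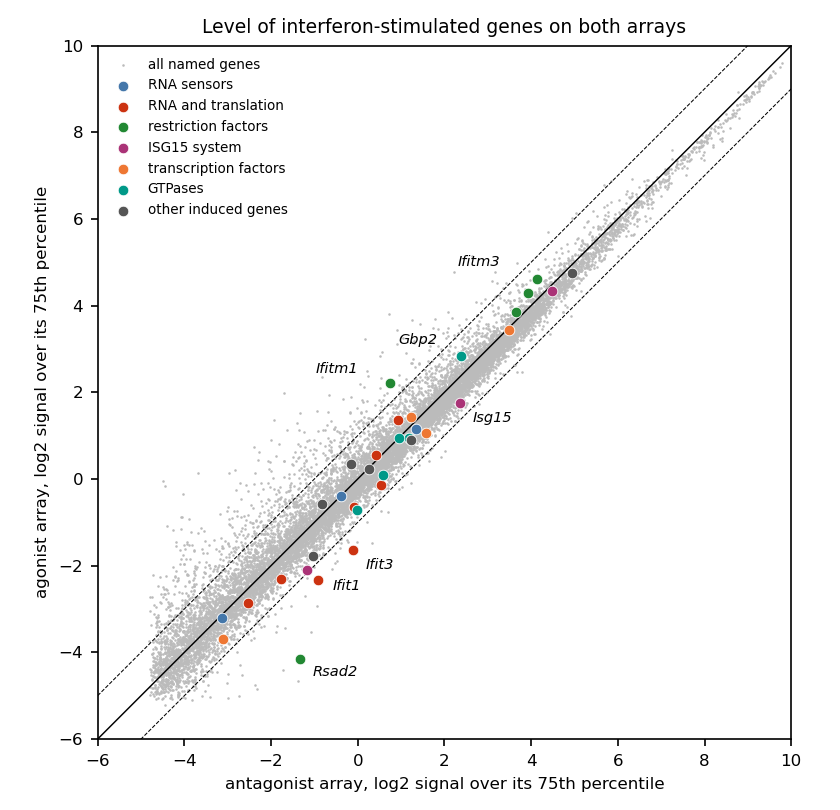
Signal on the antagonist array (x axis) against the agonist array (y axis), each as log2 over the array's 75th percentile; small grey points are the 15258 named genes well above background on both arrays, large points the 34 interferon-stimulated genes by role, the solid line equality and the dashed lines 2-fold. Rsad2, Ifit1 and Ifit3 lie below the lower dashed line and Ifitm1 above the upper one.

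The ISG15 system couples a ubiquitin-like protein, ISG15, to other proteins, and USP18 removes it again and also damps signalling at the type I receptor. Usp18 had 157 units with the agonists and 254 with the antagonists, and its log2 ratio of -0.93 ± 0.21 (software error), 1.91-fold lower, put it just outside the 2-fold limit. Isg15 had 2275 and 2924 units and a log2 ratio of -0.60 ± 0.20 (software error), and its dimmer probe gave -0.44. Trim25, a ubiquitin ligase that acts on the sensor RIG-I, had nearly equal signals, 13562 and 12767 units, and a log2 ratio of -0.15. Of the genes outside the list that serve this system, Uba7, the activating enzyme of ISG15, was at 0.60, Ube2l6, its conjugating enzyme, at 0.25 and Herc6, its ligase in mouse, at -0.01, with another probe at -0.27. Isg15 and Usp18 were thus lower with the agonists by more than their spot error, while Uba7 and Ube2l6 lay above 0.

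Among the transcription factors, Irf7, which amplifies type I interferon production, had 51.7 and 66.0 units and a log2 ratio of -0.59, and Stat2 had 1398 and 1705 units and -0.53. Irf9, the partner of STAT2 on the response element, had 1816 and 1334 units and 0.20, and Irf1, a factor that interferon gamma induces, had 7238 and 6339 units and -0.05. Another probe of Irf1 was not well above background on either array. The RNA sensors lay close to the median of all genes: the log2 ratio was -0.19 for Ddx58, which encodes RIG-I, 0.01 for Ifih1, which encodes MDA5, and -0.08 for Dhx58, which encodes LGP2. A dimmer probe of Ddx58 gave 0.01, so its direction is not settled.

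The GTPases that interferon gamma induces most strongly, which coat vacuoles around intracellular pathogens, spread to both sides of 0. Gbp3 had 410 agonist and 561 antagonist units and a log2 ratio of -0.70, while Gbp2 had 4787 and 2959 units and 0.45. For Igtp, of whose 10 spots 8 were kept on the agonist array after removal of outliers, the signal ran from 660 to 745 units under agonists and from 791 to 920 under antagonists. These ranges did not overlap, and after scaling the log2 ratio was -0.49 with an SD of 0.09 over the spots kept on both arrays. Irgm1 was at -0.01, with another probe at 0.03. For Iigp1 the probe with 1290 and 1287 units gave -0.24 and a dim one, with 40.8 and 56.7 units, gave -0.72.

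Of the other members, Ifi44 had 197 and 278 units and a log2 ratio of -0.74 ± 0.21 (software error), the fifth lowest of the list. Parp14, an ADP-ribosyltransferase, had 852 and 511 units and 0.50 ± 0.20 (software error), second only to Ifitm1. Xaf1, a partner of the apoptosis inhibitor XIAP, was at 0.24 by the probe well above background on both arrays. Rtp4, a chaperone of receptors on their way to the cell surface, was at -0.33, Ifi27 at -0.21 and Ifi35 at -0.03. In all, 9 of the 34 genes were at least 1.5-fold lower with the agonists, against 4.28% of all named genes, and 1 was at least 1.5-fold higher, against 9.26%, which left 24 within 1.5-fold. Of the 9, Rsad2, Ifit3, Ifit1 and Usp18 stayed past 1.5-fold in every alternative that measured them. With no scaling between arrays Ifi44, Gbp3, Eif2ak2, Isg15 and Irf7 fell short of it, at log2 ratios between -0.50 and -0.35. Such a shift changes the share of all named genes too.

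**Figure D3:**
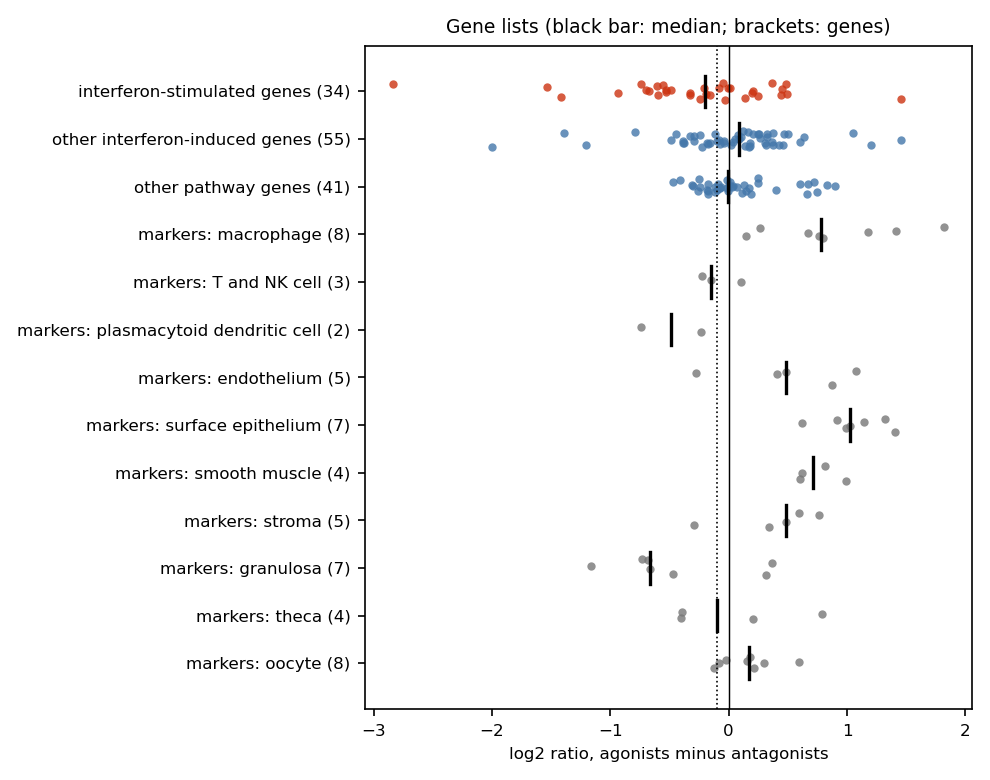
Log2 ratio (agonists minus antagonists, x axis) of single genes well above background on both arrays, one row per gene list, with the number of genes in brackets and the median as a black bar; the dotted line is the median of all named genes. The interferon-stimulated genes reach further to the left than the other pathway genes, and the markers of surface epithelium and macrophages lie to the right of 0.

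The upstream genes of the pathway had a median near 0, with several regulators and myeloid genes higher on the agonist array. Of 51 listed ligands, receptors, kinases, factors, sensors and regulators, 43 were well above background on at least 1 array, with a median log2 ratio of 0.00. Of the 41 well above background on both arrays, 0 were 2-fold higher or lower, where the shares of all named genes were 4.01% and 0.577%. At least 1.5-fold higher were 7 of the 41, or 17.1%, against 9.26% of all named genes, and 0 were as much lower, against 4.28%. Among the ligands, Ifnb1, Ifng, Ifne and Ifna4 were not well above background on either array, and the 10 that were well above it on both lay between -0.47, for Ifnk, and 0.40, for Ifna13. Probes for the Ifna genes may read several of these near-identical copies. The receptor chains had log2 ratios of -0.01 for Ifnar1, 0.03 for Ifnar2, 0.03 for Ifngr1, 0.15 for Ifngr2, -0.31 for Ifnlr1 and 0.25 for Il10rb. Jak1 was at -0.24 and Tyk2 at -0.18. The highest of those on both arrays was Tmem173, which encodes the DNA-signalling adaptor STING, at 0.90, followed by the myeloid factor Irf5 at 0.83. Socs3 and Ptpn6, which damp cytokine signalling, were at 0.75 and 0.72, Irf8, another myeloid factor, at 0.67 and Ikbke, a kinase of interferon induction, at 0.66, and Uba7 was given above. Tlr3, a sensor of double-stranded RNA, was well above background with the agonists only, at least 1.61-fold higher. Tlr7 was at -0.08 by its brighter probe. A dimmer probe of Tlr7, with 79.4 and 15.1 units, was well above background with the agonists only.

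A second list, also chosen with earlier results of these data known, held 63 further genes known to respond to interferon. Of these, 55 were measured, with a median log2 ratio of 0.08. At least 2-fold lower were 3 of the 55, or 5.45%, against 0.577% of all named genes, and at least 2-fold higher were also 3, against 4.01%. The lower ones were Ccl5, Ifit3b and Cxcl10. Ifit3b counts by its brighter probe, at -1.39, beside -0.16 by the other, and the probe may also read Ifit3 of the first list. Ccl5, a chemokine that draws T cells and monocytes, had 88.2 agonist and 299 antagonist units, the lowest log2 ratio of the 55. Cxcl10, a chemokine named for its induction by interferon gamma, had 336 and 657 units and -1.21 ± 0.21 (software error). The higher ones were Ifi27l2a, with 4290 and 1324 units and a log2 ratio of 1.45, Mndal, a relative of the DNA sensor IFI204, with 701 and 258 units and 1.20, and Lgals9, which encodes galectin-9, with 745 and 305 units and 1.05. A dimmer probe of Zbp1, not counted here, had 113 and 28.7 units and a log2 ratio of 1.74, beside 0.08 by its brighter probe. The 5 measured copies of Oas1, several of which are known for expression in oocytes, all lay above 0, between 0.17 and 0.43. Of all named genes 37.7% lay above 0, and probes of these near-identical copies may read the same transcripts. For the related chemokine Cxcl9 the log2 ratio was 0.05 ± 0.32 (software error) at 34.9 and 28.4 units, so its direction is not settled.

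Markers of several cell types also differed between the arrays. The counts of higher markers below are to be read beside the 37.7% of all named genes with a log2 ratio above 0. On the agonist array 7 of 7 surface epithelium genes were higher, between 0.62 and 1.40, with the log2 of their summed scaled level higher by 1.09. The 9 measured of 10 macrophage genes were also all higher by their brightest probes, between 0.15 and 1.82, with a median of 0.80. Their summed level was higher by 0.43, a sum in which Csf1r, at 0.15, gave 5607 of 9576 agonist units. Dimmer probes of Csf1r gave -0.09 and 0.04. Endothelial genes were higher in 5 of 6, smooth muscle genes in 4 of 4 and stromal genes in 4 of 5, with summed levels higher by 0.23, 0.71 and 0.29. Of 7 granulosa genes 2 were higher, and their summed level differed by -0.51. Of the T and NK cell genes, Cd3d, Cd8a, Gzmb and Ncr1 were not well above background on either array, and the other 4 had a summed level that differed by -0.01. Siglech and Ccr9, listed for plasmacytoid dendritic cells, which are a rich source of type I interferon, had log2 ratios of -0.23 and -0.74. The Siglech probe gave 135140 and 134302 units, brighter than that of the oocyte gene Gdf9, so its value is not taken as a measure of these cells, and Ccr9 gave only 26.7 and 37.7 units. The B cell list had 3 of 4 genes higher and a summed level higher by 0.22, the theca list 2 of 4 and 0.02, the oocyte list 5 of 8 and -0.06, and the erythrocyte list 1 of 3 and -0.16. The part of these cells in the differences of Ifitm1, Rsad2 and the other interferon-stimulated genes was not tested.

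The promoter core did not sort the genes by direction. The 16 measured genes with the GAAA core in their window had a median log2 ratio of -0.34 and ranged from -2.84 to 0.49, with 10 below 0, while the 11 without it had a median of -0.05 and ranged from -0.74 to 1.46, with 7 below 0. Rsad2, Ifit1 and Ifit3, printed above, each hold the core, at position -120 from the start in Rsad2 and 2 times each in Ifit1 and Ifit3. Gbp2 and Bst2 hold it too and had log2 ratios of 0.45 and 0.37. Of the 9 genes at least 1.5-fold lower, 8 had a window, and 6 of these held the core. The element through which interferon gamma acts on promoters, TTCNNNGAA, which reads alike on both strands, was found in 8 of the 28 genes, or 28.6%, against 9.55% of all genes, and overlapped the other core in 2 windows. These matches describe letters in a window and were not measured as binding sites.

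**Figure D4:**
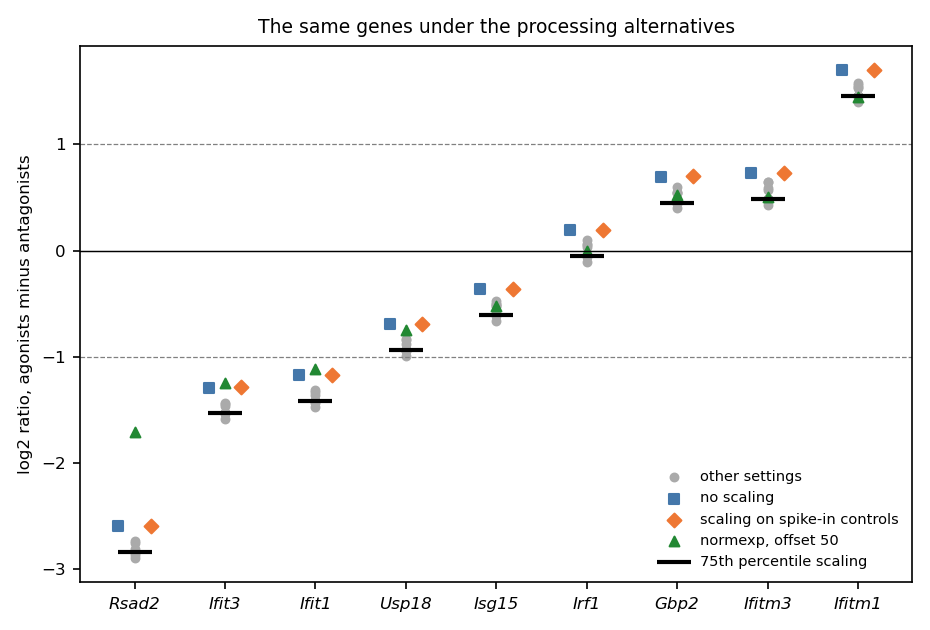
Log2 ratio (agonists minus antagonists, y axis) of 9 interferon-stimulated genes under the processing alternatives; black bars are the values given in the text, squares no scaling, diamonds scaling on spike-in controls, triangles the normexp background correction and grey points the other settings, and dashed lines mark 2-fold. Rsad2, Ifit3 and Ifit1 stay below -1 and Ifitm1 above 1 in each setting that keeps them, while Irf1 crosses 0.

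Most other scalings shift all genes by the same amount, so genes far from 0 keep their sign under them and genes near 0 do not. Over the 15 alternatives Rsad2 lay between -2.89 and -1.70, Ifit3 between -1.59 and -1.25, Ifit1 between -1.47 and -1.11 and Ifitm1 between 1.40 and 1.70. Usp18 lay between -0.99 and -0.69 and Isg15 between -0.66 and -0.36. In all, 25 of the 34 genes kept their sign in every alternative that measured them, 15 below 0 and 10 above. For genes read from 1 spot of 1 probe, the alternatives for spots, probes and filters could not change the value. The other 9, among them Irf1, Irgm1, Ifih1, Ddx58, Dhx58 and Trim25, had log2 ratios between -0.24 and 0.01 and changed sign in at least 1 alternative. The median of the 34 differed from that of all genes by -0.11, a gap that a common shift cannot change. With only bright probes, as above, the difference turned to 0.12, over 21 of the genes.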

How the data were processed

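The authors had the RNA labelled with Cy3, hybridised it to single-colour mouse oligonucleotide arrays and read these with Agilent Feature Extraction 10.10.1.1. The authors deposited linear spot intensity values, background-corrected by that program and not scaled between arrays, and a summary table of intensities that equals the processed signal times 1.99 for the agonists and 2.19 for the antagonists. Of 59305 spots that are not controls, outlier spots were removed; log2 signals were set over the array's 75th percentile and averaged per probe. A probe counted as well above background if more than 50% of its spots did. Of 55674 probes, 27230 were named through RefSeq accessions of the GRCm38.p6 gene table; for 453 of the 26531 probes that carry NM accessions the table gave none. A gene was represented by its brightest probe well above background on at least 1 array. By rule the text names the members, genes of the other 2 lists past 2-fold, the receptor chains, Jak1 and Tyk2 (1 further gene of that rule is not reported here); further genes of those lists were added after their values were seen. The members and lists were chosen with earlier results of these data known. With 1 array per group no test was made; a pair of arrays limits the precision. The steps were tested on simulated data. Alternatives were other scalings, the authors' values, normexp (limma 3.58.1, R 4.3.3, offset 50, on the median spot signal), other summaries of spots and probes and other filters. Python 3.11.15, numpy 2.4.6, pandas 2.3.3 and statsmodels 0.14.6 were used.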

Additional observations from a re-analysis of the deposited data

How the results depend on the processing

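No paired analysis was possible because agonists and antagonists were each hybridised once, without replicates. The median log2 ratio of the interferon-stimulated genes, -0.20, became 0.0397 with no scaling and 0.0434 with scaling on spike-in controls, and the number of these genes above 0 rose from 11 to 19 with either. With the same settings the median of the other pathway genes became 0.24 and 0.25, and that of the other interferon-induced genes 0.33 and 0.33. No scaling moves every gene alike, by 0.24 on the log2 scale. The number of interferon-stimulated genes at least 2-fold lower, 3, became 0 when probes whose mean signal fell under the 75th percentile were dropped, where 21 genes remained measured and Rsad2, Ifit1 and Ifit3 were too dim to enter, and 9 with a 1.5-fold threshold. The other 82 of 92 values for the medians and counts moved by less than the error of a spot or, for counts, by no more than 1.5 times. That error, 0.20, is as large as the median of the interferon-stimulated genes itself, so this limit is a loose one. The median became -0.06 with a loess scaling on mean signal, -0.10 with the authors' values and -0.03 with bright probes only, and all of these counted as not moved. For single genes and role groups 508 of 602 values moved by less than their spot error, and Rsad2, Ifit1, Ifit3 and Ifitm1 kept their sign. In both tallies many values could not move, because settings for spots, probes or filters leave a gene with 1 spot and 1 probe unchanged. Signal over background limits the size of the ratio of Rsad2.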
